A study of Mus musculus with 24 samples.

Results

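The integrin and laminin chains described here are 36 genes, of 21959 in the deposited table, chosen by their symbol, which is Itga or Itgb followed by digits or by 1 letter with optional digits, or Lama, Lamb or Lamc followed by 1 digit. They comprise 17 integrin alpha chains, 8 integrin beta chains, 5 laminin alpha, 3 laminin beta and 2 laminin gamma chains, and Itgbl1, whose symbol fits the pattern but whose product is an integrin beta-like secreted protein and no receptor chain. The study took RNA from aortas of 24 male mice, from the ascending aorta to the bifurcation in the abdomen, in a design of 2 genotypes by 2 treatments. The groups were wild type (WT) on plain water (6 mice), WT given β-aminopropionitrile, BAPN (WT-BAPN, 7 mice), ATAD3A-KI on plain water (KI, 5 mice), and ATAD3A-KI given BAPN (KI-BAPN, 6 mice). BAPN, an inhibitor of the lysyl oxidases that cross-link collagen and elastin, was given at 0.5% (w/v) in the drinking water for 28 days from 3 weeks of age to induce aortic aneurysm and dissection. The labels say that KI is a knock-in of ATAD3A but name no promoter or cell type for it, and litters or days of collection are not given, so p-values measure the spread between these 24 mice.

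Integrins are receptors of 1 alpha and 1 beta chain that join the matrix outside a cell to the actin cytoskeleton inside it. Laminins are trimers of 1 alpha, 1 beta and 1 gamma chain that form the sheet of a basement membrane, the layer that surrounds each vascular smooth muscle cell and underlies the endothelium. In the aortic wall, smooth muscle cells are held to laminin, fibronectin and elastic fibre proteins largely through beta1 and alphav integrins, whereas leukocytes carry beta2 and beta7 integrins.

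Totals ran from 13127645 to 26490651 counts per library. Atad3a itself ran from 24.9 to 61.4 CPM in the 13 libraries labelled WT or WT-BAPN and from 231 to 1629 CPM in the 11 labelled KI or KI-BAPN. Members took 0.685 to 1.22% of the counts in 22 libraries, 0.419% in KI-BAPN replicate 3 and 0.344% in WT replicate 5. These 2 libraries stood apart. WT replicate 5 had 21777 CPM (read counts scaled to a common library total, with TMM factors) summed over 14 airway and simple epithelium markers, against at most 286 CPM in any other library. It also had the highest summed T cell markers of its group (431 CPM, group median 23.4), B cell markers (596 CPM, median 2.16) and skeletal muscle markers (6655 CPM, median 17.4). KI-BAPN replicate 3 had the highest sum of 10 adipocyte markers (15792 CPM, group median 2547). In the KI group that sum was highest in replicate 5 (11955 CPM, group median 1755). KI replicate 2 had the highest sum of 11 sympathetic neuron markers (2125 CPM, group median 158). The sum of 12 smooth muscle markers, Myh11 and Acta2 among them, was lowest of all in KI-BAPN replicate 3 (15035 CPM) and next lowest in WT replicate 5 (15521 CPM), against group medians of 33887 to 53681 CPM. No listed marker of any of these cell types was at 0 in every library. In whole tissue, fewer cells of a type and less RNA per cell cannot be told apart, and the part of these other tissues in the results below was not tested.

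Of the 36 genes, 33 passed the filter on low counts and 3 did not. Itgad, a myeloid alpha chain, had 5 counts over all 24 libraries and was at 0 in 20 of them. Lama1, the alpha chain of the embryonic laminin, had 56 counts. Itgb6, an epithelial chain, had 76 counts, of which 52 were in WT replicate 5. All further counts are over the 33 that passed.

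Promoters are shown for 3 alpha chains, to set a myeloid pair beside a smooth muscle chain: Itgam and Itgax, neighbouring genes for the myeloid alphaM and alphaX chains, whose levels were highest in the same few libraries, and Itga8, the alpha chain most abundant per length here. The windows hold 250 bases before and 50 bases after a start site in RefSeq (GRCm38.p6), and 23 of the 36 genes had one. Itgam lies at chr7:128062390-128062689 (plus strand), Itgax at chr7:128129300-128129599 (plus strand) and Itga8 at chr2:12301895-12302194 (minus strand). Capitals mark GAGGAA, the core read by PU.1 of myeloid cells, in Itgam, and TGAGTCA, the AP-1 site, in Itgax, each searched on both strands.
Itgam: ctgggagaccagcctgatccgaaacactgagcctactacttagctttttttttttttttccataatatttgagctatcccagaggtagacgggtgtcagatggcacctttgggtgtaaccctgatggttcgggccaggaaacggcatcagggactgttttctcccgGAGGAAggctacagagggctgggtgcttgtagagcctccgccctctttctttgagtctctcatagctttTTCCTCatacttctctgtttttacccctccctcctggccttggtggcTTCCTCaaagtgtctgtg
Itgax: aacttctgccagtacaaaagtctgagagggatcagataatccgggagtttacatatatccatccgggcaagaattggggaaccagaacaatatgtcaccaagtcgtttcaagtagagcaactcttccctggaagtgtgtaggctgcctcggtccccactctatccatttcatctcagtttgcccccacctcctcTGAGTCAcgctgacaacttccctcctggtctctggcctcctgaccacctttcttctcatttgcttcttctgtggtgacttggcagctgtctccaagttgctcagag
Itga8: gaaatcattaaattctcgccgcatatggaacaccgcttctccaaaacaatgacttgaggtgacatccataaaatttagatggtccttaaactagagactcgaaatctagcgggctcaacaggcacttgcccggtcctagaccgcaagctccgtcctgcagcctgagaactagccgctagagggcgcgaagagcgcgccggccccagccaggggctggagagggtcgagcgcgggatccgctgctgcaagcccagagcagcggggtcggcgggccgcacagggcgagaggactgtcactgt
The Itgam window held 3 matches to GAGGAA and the Itgax window 1 match to TGAGTCA. Over all 32851 windows, 28.28% held GAGGAA and 5.202% held TGAGTCA. The Itga8 window held neither, nor the CArG box of smooth muscle genes, which 1.629% of windows held, nor GGGCGG, which 35.66% held. The PU.1 core was absent from the Itgax window, and the AP-1 site from the Itgam window. Of the 26 windows of member genes, 13 held the PU.1 core, those of Itgb1, Itga5 and Lamb2 among them. The core was thus not confined to myeloid chains. A match describes the letters of the window and shows no binding, and its absence says nothing of a factor.

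The level of each chain was first compared per length, as CPM per kilobase of the gene length in the deposited table. Itgb1, the beta chain shared by the collagen, laminin and fibronectin receptors, was the highest, with a median of 397 CPM per kilobase over the 24 libraries. Itga8, a partner of Itgb1 that binds nephronectin and other RGD proteins, followed at 382. Itgb5 (a partner of alphav) at 221, Itga5 (the fibronectin receptor alpha chain) at 139.9 and Lamb2 (the beta2 chain of laminins) at 132 came next. At the other end stood Itgae, Lamb3 and Itgal, with medians of 0.0746, 0.06505 and 0.103 CPM per kilobase.

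Itgb1, Lamb2 and Lamc1 each held over 50% of the level of their class in all 24 libraries, Lama5 in 19 and Itga8 in 16. Itga8 took a median of 51.0% of the summed alpha level per length, with group medians from 43.1% in WT to 55.1% in KI-BAPN, and Itga5 took 21.7%. Of the beta level, Itgb1 took 63.4% and Itgb5 31.5%. Among laminin chains, Lama5 took 59.1% and Lama4 35.1% of the alpha level, Lamb2 98.1% and Lamb1 1.87% of the beta level, and Lamc1 83.1% and Lamc3 16.9% of the summed level of these 2 gamma chains. Which trimers these chains formed was not measured. WT replicate 5 departed from this, with 9.84% of its alpha level in Itga8 and 44.2% in Itga5, and 21.2% of its laminin beta level in Lamb1. In KI-BAPN replicate 3 the order of Lama4 and Lama5 was turned, at 59.8% and 30.9%.

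**Figure D1:**
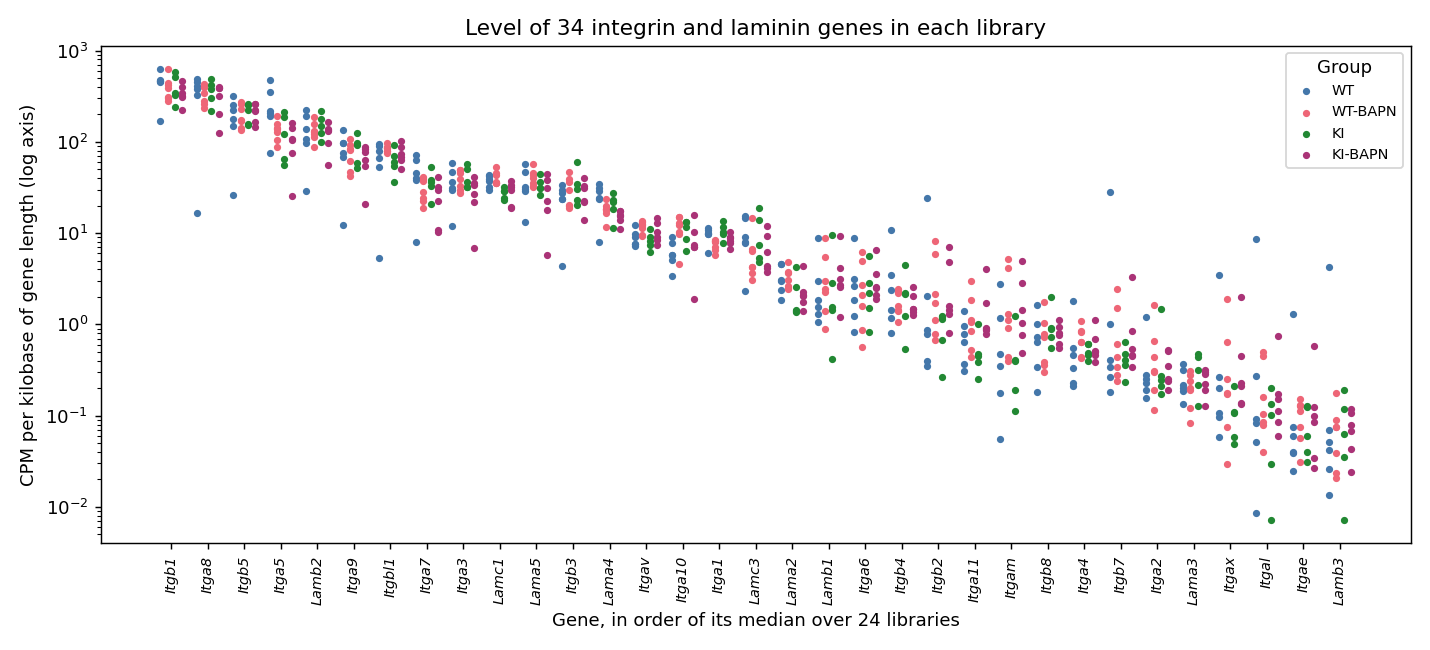
Level of the 33 genes in each library, as CPM per kilobase of gene length on a log axis, with 1 point per library coloured by group and genes ordered by their median over 24 libraries. Itgb1, Itga8, Itgb5, Itga5 and Lamb2 stand at the high end in all 4 groups, and the leukocyte chains and Lamb3 at the low end.

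The 3 most abundant chains by class kept overlapping ranges in all 4 groups. Itga8 (chromosome 2) ran from 123 to 3587 CPM in WT (median 2917), from 1739 to 3148 in WT-BAPN (2498), and from 924 to 2917 in KI-BAPN (2616), and stood at 3116, 2211, 3628, 2828 and 1618 CPM in the 5 KI libraries. Its low ends were WT replicate 5 and KI-BAPN replicate 3, and the other 5 WT libraries had 2377 CPM or more. The log2 change of Itga8 was -0.04 ± 0.43 (SE) on BAPN in WT and -0.26 ± 0.46 on BAPN in KI, by the edgeR quasi-likelihood fit.

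Itgb1 (chromosome 8) ran from 686 to 2594 CPM in WT (median 1911), from 1142 to 2568 in WT-BAPN (1606) and from 903 to 1873 in KI-BAPN (1359.7), with 1336, 979.8, 2377, 2082 and 1398 CPM in KI. The groups overlapped, and the low ends in WT and KI-BAPN were again the 2 libraries poor in smooth muscle markers. Lamb2 (chromosome 9) ran from 175 to 1348 CPM in WT (median 743), from 540.2 to 1129 in WT-BAPN (772) and from 343 to 999.8 in KI-BAPN (813), with 914, 601, 1089, 1312 and 759 CPM in KI. Every adjusted p of Itga8, Itgb1 and Lamb2 in the 5 comparisons was 0.722 or more (edgeR, Benjamini-Hochberg over 14216 genes).

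The question put to every chain was whether its RNA differed with BAPN within a genotype, with genotype within a treatment, or in its response to BAPN between genotypes. By edgeR's quasi-likelihood test at an adjusted p under 0.05, 0 of the 33 members were called in any of the 5 comparisons. On BAPN in WT, 6.14% of all tested genes were called, and on BAPN in KI 0.0352%. Between KI and WT on plain water 0.19% of all tested genes were called, on BAPN 0.00703%, and in the interaction 0%. At an unadjusted p under 0.05, the members called in these 5 comparisons were 7, 3, 8, 1 and 3, that is 21.2, 9.09, 24.2, 3.03 and 9.09%. The same shares over all tested genes were 25, 10.1, 16.9, 13.9 and 14.8%. DESeq2 called 0 members in any of the 5 comparisons, against 10.5% of all genes on BAPN in WT, 1.39% on BAPN in KI, 3.38% between genotypes on plain water, 0.134% on BAPN and 0.0633% in the interaction. Limma voom with quality weights, a fit that gives less weight to libraries far from the rest, called 7 members on BAPN in WT, against 29.8% of all genes. In the other comparisons it called 0 members, against 0% of all genes on BAPN in KI, 1.91% between genotypes on plain water, 0.0211% on BAPN and 0.0281% in the interaction.

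The median log2 change over the members was -0.04 on BAPN in WT, -0.22 on BAPN in KI, -0.15 between KI and WT on plain water and -0.13 on BAPN. Over all tested genes the medians were -0.04, -0.03, -0.01 and -0.02. Leaving out WT replicate 5 turned the sign of the change of 11 members on BAPN in WT, of 11 between KI and WT on plain water and of 13 in the interaction, and the members' median on BAPN in WT became 0.12. That library was the highest of all 24 for 9 members and the lowest for 10.

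**Figure D2:**
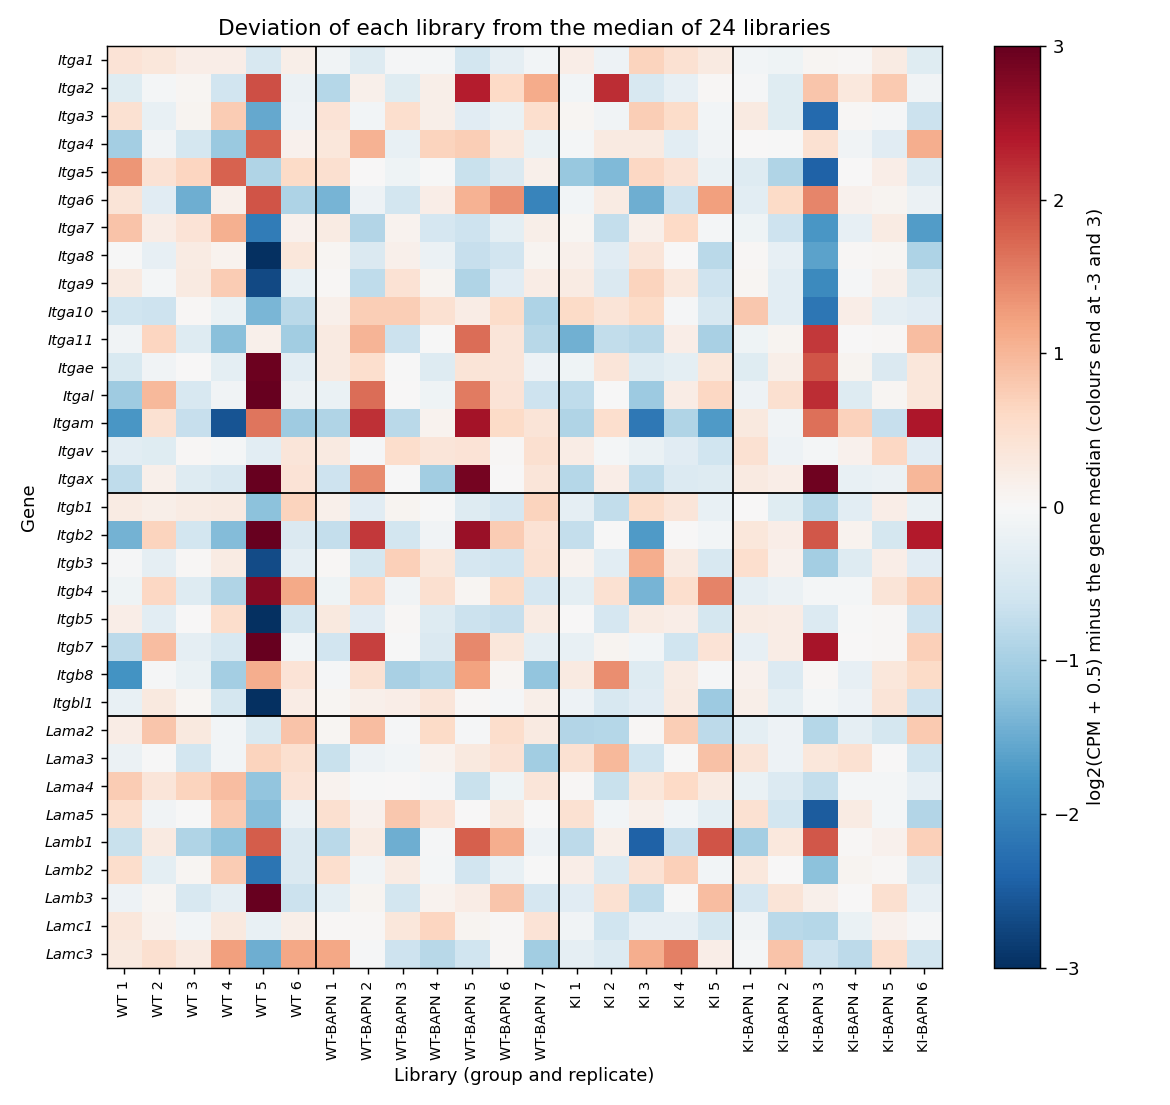
Deviation of each library (columns, by group and replicate) from the gene's median over 24 libraries, on the log2(CPM + 0.5) scale, for the 33 genes in rows, alpha chains first, then beta chains and laminins, with colours ending at -3 and 3. The column of WT replicate 5 holds the strongest colours in both directions, being the highest library for 9 genes and the lowest for 10.

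**Figure D3:**
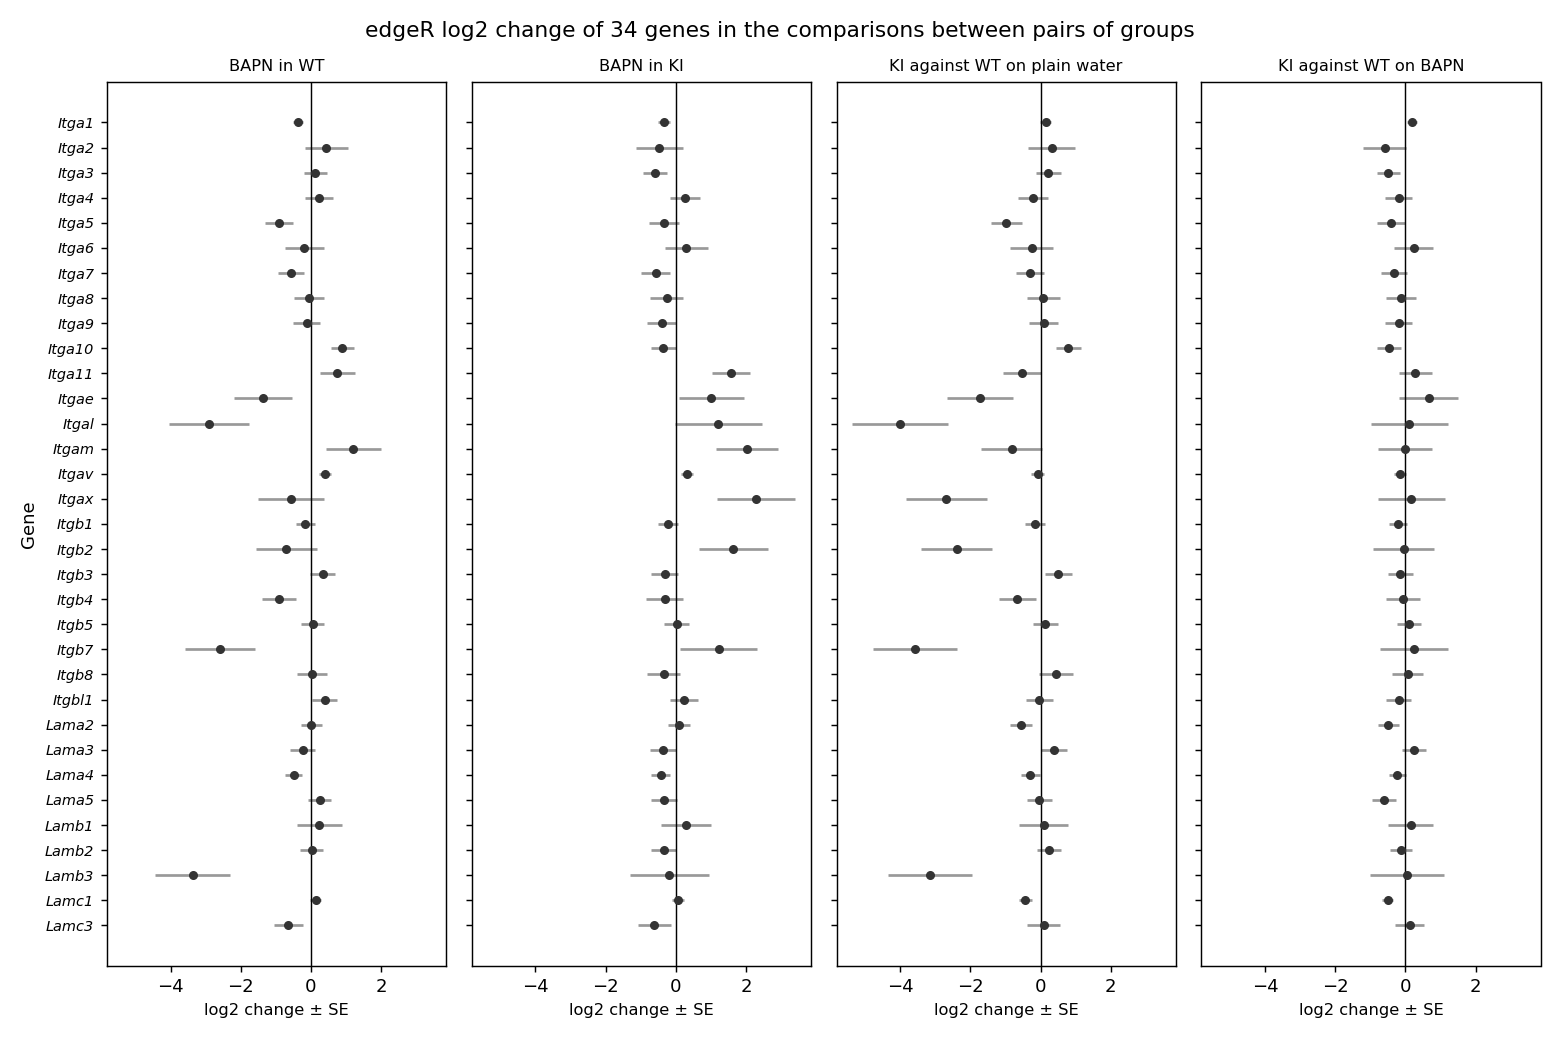
The edgeR log2 change of each of the 33 genes with its standard error, in 4 panels for BAPN in WT, BAPN in KI, KI against WT on plain water and KI against WT on BAPN. Most points lie near 0, and the largest changes, such as -3.37 ± 1.07 for Lamb3 on BAPN in WT and -4.01 ± 1.36 for Itgal between genotypes on plain water, are among those with the widest bars.

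Lamb3, the beta3 chain of an epithelial laminin, had the smallest adjusted p of the members in any comparison. It was near the floor of detection in 23 libraries. Its level was 0.338, 0.462, 0.171, 0.276 and 0.0904 CPM in the other WT libraries and 28.4 CPM in WT replicate 5. In WT-BAPN it ran from 0.137 to 1.16 CPM (median 0.492) and in KI-BAPN from 0.158 to 0.791 (0.486). KI had 0.236, 0.781, 0.0470, 0.416 and 1.27 CPM. Thus 1 library set the WT mean. The log2 change on BAPN in WT was -3.37 ± 1.07 (adjusted p = 0.0606, edgeR) and became 0.79 (adjusted p = 0.431, edgeR) without that library, which also held the airway epithelium markers. Leaving out WT replicate 3 or 6 instead gave changes of -3.62 (adjusted p = 0.0499, edgeR) and -3.63 (adjusted p = 0.0483, edgeR).

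Lamc1, the gamma1 chain found in most laminins, varied least within WT, with a coefficient of variation of 14.6%, and within KI, at 14.1%. It ran from 244 to 358 CPM in WT (median 315), from 289 to 444 in WT-BAPN (300.4) and from 156 to 310 in KI-BAPN (256). KI had 265, 189, 241, 239 and 198 CPM. The KI ranges lay low but reached into those of WT. On BAPN the KI change was -0.51 ± 0.17 (adjusted p = 0.243, edgeR) and on plain water -0.44 ± 0.18 (adjusted p = 0.213, edgeR). The comparisons between genotypes do not share samples. Without WT replicate 5, every KI library on plain water was below every WT library for Lamc1, 1 of 33 members, against 3.65% of all tested genes.

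Lama5, the alpha5 chain of vascular basement membranes, ran from 365 to 653 CPM in WT-BAPN (median 456) and from 65.4 to 511 in KI-BAPN (median 306). The ranges overlapped, and the lowest value belonged to KI-BAPN replicate 3. The change was -0.62 ± 0.34 (adjusted p = 0.416, edgeR). It was 152 to 644 CPM in WT (median 355), and 507, 352, 411, 352 and 301 CPM in KI.

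Lama4, the alpha4 chain of endothelial and muscle basement membranes, ran from 96.6 to 422 CPM in WT (median 323), from 139 to 282 in WT-BAPN (219) and from 134 to 212 in KI-BAPN (189.9), with 224, 138, 281, 336 and 265 CPM in KI. The lowest WT value was that of replicate 5, and the other 5 had 284 CPM or more, above every WT-BAPN library. The log2 change on BAPN in WT was -0.49 ± 0.24 (adjusted p = 0.214, edgeR) and without WT replicate 5 -0.67 ± 0.19 (adjusted p = 0.0313, edgeR). With a smooth muscle score as a covariate it was 0.08 (adjusted p = 0.784, edgeR). Smooth muscle markers summed to a median of 53681 CPM in WT and 33887 CPM in WT-BAPN. On BAPN in KI the change was -0.44 ± 0.26 (adjusted p = 0.582, edgeR). Lama4, Itga1 and Itga5 are described because they were called in several alternatives, a choice made after their values were seen.

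The remaining laminin chains, Lama2 (the merosin alpha chain of muscle), Lama3, Lamb1 and Lamc3, had adjusted p-values of 0.358 or more in all 5 comparisons (edgeR). Lamb1 ran from 4.19 to 93.9 CPM within the 5 KI libraries and was 88.1 CPM in WT replicate 5.

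Receptors for collagen are Itga1, Itga2, Itga10 and Itga11, which pair with Itgb1. Itga1 ran from 113 to 212 CPM in WT (median 184), from 108 to 156 in WT-BAPN (147) and from 124 to 190 in KI-BAPN (158). The KI values were 182, 145, 253, 220 and 192 CPM. As with Lama4, the lowest WT value was replicate 5, and the other 5 WT libraries were all above every WT-BAPN library. These were the 2 of 33 members so separated, lower on BAPN, without that library, against 2.38% of all tested genes. The change of Itga1 was -0.37 ± 0.15 (adjusted p = 0.119, edgeR), and without it -0.47 ± 0.13 (adjusted p = 0.0330, edgeR).

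Itga10, a collagen receptor chain best known in cartilage, ran from 17.4 to 47.4 CPM in WT (median 29.8) and from 24.0 to 77.6 in WT-BAPN (63.1). KI had 68.3, 59.9, 68.7, 44.5 and 32.7 CPM, and KI-BAPN 9.92 to 81.5 (37.5). In WT-BAPN 6 of 7 libraries exceeded every WT library, replicate 7 being the exception, while KI and KI-BAPN overlapped throughout. Without WT-BAPN replicate 7 the change in WT was 1.03 (adjusted p = 0.0435, edgeR). With all libraries it was 0.90 ± 0.34 in WT (adjusted p = 0.104, edgeR) and -0.36 ± 0.36 in KI (adjusted p = 0.749, edgeR). The test of that difference gave an interaction of -1.26 ± 0.49 (adjusted p = 0.291, edgeR). On BAPN in WT, Itga10 was also called higher in limma voom (0.91, adjusted p = 0.00639). It was called higher too with the macrophage covariate (1.09, adjusted p = 0.0326, edgeR) and the smooth muscle covariate (1.33, adjusted p = 0.0228, edgeR).

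Itga11, a fibroblast receptor for fibrillar collagen, had 1.30, 2.42, 2.31, 5.18 and 2.01 CPM in KI and 3.99 to 20.7 in KI-BAPN (median 4.62). The groups overlapped through KI replicate 4, and KI-BAPN replicate 3 was the highest of all. Of the members it had the smallest adjusted p on BAPN in KI, with a change of 1.57 ± 0.55 (adjusted p = 0.303, edgeR). The WT-BAPN range, 2.25 to 15.2 CPM, overlapped that of WT, 1.57 to 7.21. Itga2, the platelet and epithelial collagen receptor, had adjusted p-values of 0.631 or more throughout (edgeR).

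**Figure D4:**
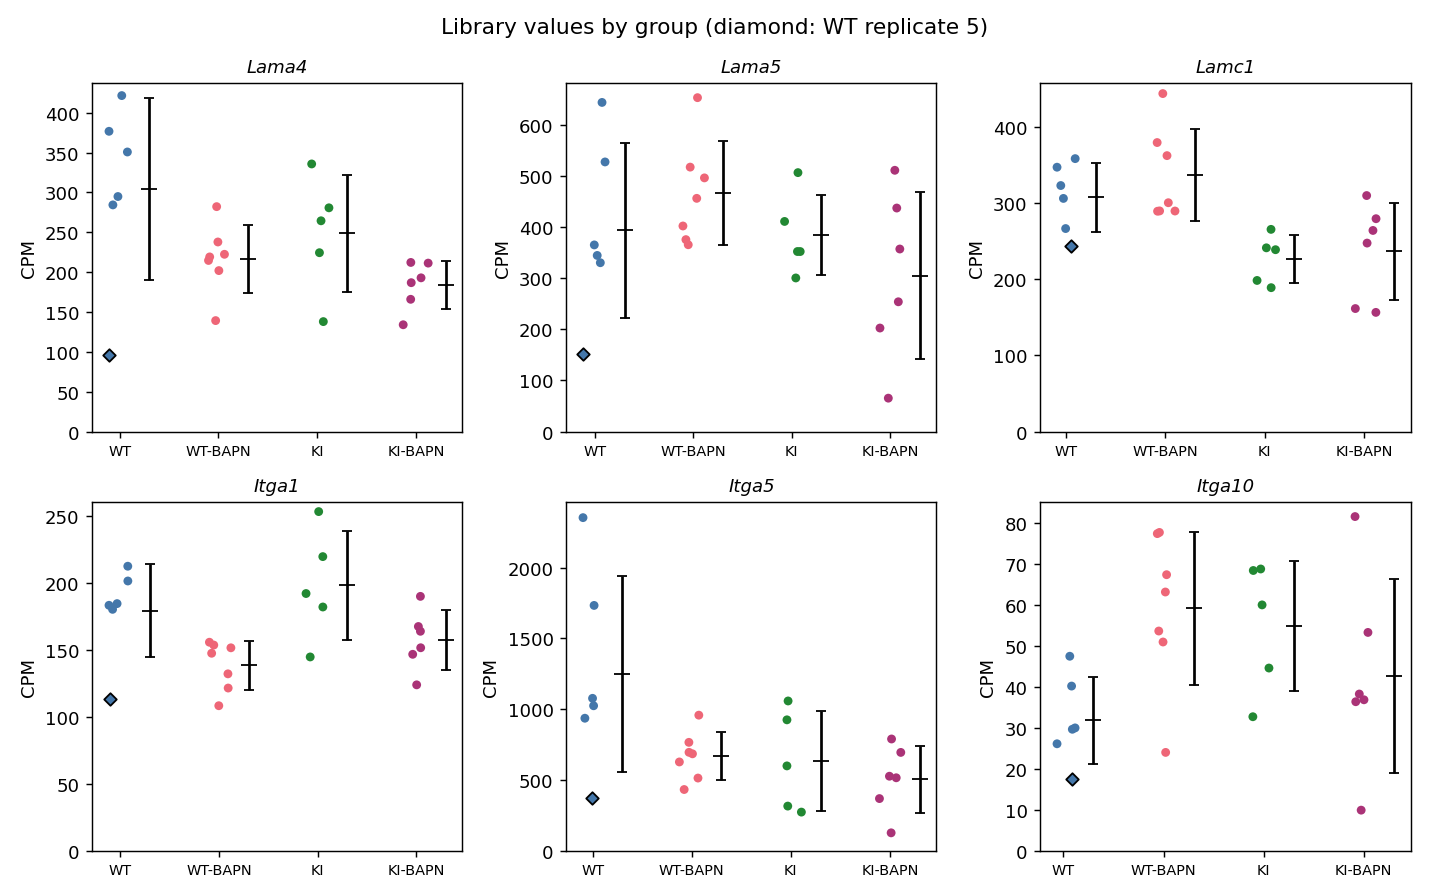
CPM in each library by group for Lama4, Lama5, Lamc1, Itga1, Itga5 and Itga10, with the mean and SD of each group beside its points and WT replicate 5 drawn as a diamond. The diamond is the lowest WT point in all 6 panels, at 96.6 CPM for Lama4 and 113 CPM for Itga1, where the other 5 WT points lie above every WT-BAPN point.

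Receptors that bind the RGD motif of fibronectin, vitronectin and similar proteins were Itga5, Itga8, Itgav, Itgb3, Itgb5 and Itgb8. Itga5 ran from 371 to 2353 CPM in WT (median 1051), from 433 to 958 in WT-BAPN (685) and from 127 to 789.9 in KI-BAPN (522). KI had 316, 274, 1058, 925 and 599.9 CPM. The groups overlapped. In WT the highest library was replicate 4 and the lowest replicate 5. The change was -0.90 ± 0.40 on BAPN in WT (adjusted p = 0.157, edgeR) and -0.98 ± 0.44 in KI against WT on plain water (adjusted p = 0.256, edgeR). With the smooth muscle score as a covariate the first was 0.17 (adjusted p = 0.587, edgeR) and the second -0.84 (adjusted p = 0.0422, edgeR). On BAPN in WT, Itga5 was also called lower in limma voom (-0.97, adjusted p = 0.0126), with fat and muscle covariates (-1.23, adjusted p = 0.0481, edgeR), without WT replicate 5 and KI-BAPN replicate 3 (-1.09, adjusted p = 0.0336, edgeR) and without WT replicate 5 and KI replicates 1, 2 and 5 (-1.09, adjusted p = 0.0402, edgeR). Without WT replicate 5 alone it was not called (-1.09, adjusted p = 0.0690, edgeR), and 0 of the fits that left out 1 library called it.

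Itgav, the shared alphav chain, ran from 78.3 to 132 CPM in WT and from 99.5 to 148 in WT-BAPN, overlapping ranges with a change of 0.39 ± 0.17 (adjusted p = 0.143, edgeR). Itgb3, its platelet and smooth muscle partner, Itgb5 and Itgb8 had adjusted p-values of 0.528 or more in all 5 comparisons (edgeR). Itgb5 and Itgb3 were lowest of all libraries in WT replicate 5, at 93.9 and 25.9 CPM.

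Receptors for laminin were Itga3, Itga6, Itga7 and Itgb4. Itga7, the muscle laminin receptor, was at a median of 352 CPM in WT, 229.98 in WT-BAPN, 294 in KI and 211 in KI-BAPN, with overlapping ranges. Its change was -0.56 ± 0.37 on BAPN in WT (adjusted p = 0.358, edgeR) and -0.58 ± 0.40 in KI (adjusted p = 0.631, edgeR). Itga3, Itga6 and Itgb4, known mostly from epithelium, had adjusted p-values of 0.241 or more (edgeR). Itga6 and Itgb4 were highest of all libraries in WT replicate 5. Itga3 went the other way there, its 67.8 CPM being the bottom value of the WT group. Its lowest value of all, 38.8 CPM, was in KI-BAPN replicate 3. The alpha4 and alpha9 chains bind VCAM-1 and tenascin. Itga9 was at medians of 661, 626, 717 and 540.5 CPM in WT, WT-BAPN, KI and KI-BAPN, with adjusted p-values of 0.755 or more (edgeR). Itga4, carried by lymphocytes and monocytes, ran from 2.95 to 7.64 CPM in 5 WT libraries and was 25.1 in replicate 5. Its change on BAPN in WT was 0.23 ± 0.39 (adjusted p = 0.751, edgeR), and without that library 0.96 ± 0.30 (adjusted p = 0.0476, edgeR). Itga4 was also called without WT replicate 5 and KI-BAPN replicate 3 (0.96, adjusted p = 0.0457, edgeR) and in limma voom on all libraries (0.98, adjusted p = 0.00915). It was not called without WT replicate 5 and KI replicates 1, 2 and 5, so the call depended on the fit. Itgbl1 varied least of all within WT-BAPN, from 318 to 415 CPM, a coefficient of variation of 9.08%.

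Chains of leukocyte integrins that passed the filter were Itgal, Itgam, Itgax and Itgae, and the beta chains Itgb2 and Itgb7. Itgam, which pairs with Itgb2 on macrophages and neutrophils, had 0.901, 5.96, 2.40, 0.276, 13.8 and 1.76 CPM in WT replicates 1 to 6. It ran from 2.01 to 25.8 CPM in WT-BAPN (median 5.66) and from 2.43 to 24.6 in KI-BAPN (6.20), and KI had 2.00, 6.17, 0.564, 2.04 and 0.960 CPM. KI and KI-BAPN overlapped only through KI replicate 2. The change on BAPN in KI was 2.02 ± 0.88 (adjusted p = 0.447, edgeR) and in WT 1.21 ± 0.79 (adjusted p = 0.351, edgeR).

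Itgb7, the beta chain of gut-homing and intraepithelial lymphocytes, had 78.4 CPM in WT replicate 5 and 0.507 to 2.77 in the other 5 WT libraries. KI had 0.983, 1.33, 1.13, 0.648 and 1.79 CPM, inside the range of those 5. WT-BAPN ran from 0.672 to 6.73 CPM (median 1.23) and KI-BAPN from 0.948 to 9.18 (1.39). The change in KI against WT on plain water was -3.57 ± 1.19 (adjusted p = 0.142, edgeR), and -0.06 without that library. The interaction, 3.80 ± 1.49 (adjusted p = 0.291, edgeR), was 0.29 without it.

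Itgal, the alphaL chain of LFA-1 on lymphocytes, was at most 4.91 CPM outside WT replicate 5, which had 57.0 CPM. The other 5 WT libraries ran from 0.0563 to 1.80 CPM. KI had 0.197, 0.664, 0.0470, 0.879 and 1.31 CPM, of which 4 lay inside the range of those 5 and replicate 3, the lowest of all 24 libraries, just below it. It ran from 0.262 to 3.24 CPM in WT-BAPN (median 0.683) and from 0.395 to 4.91 in KI-BAPN (0.860). The change in KI against WT on plain water was -4.01 ± 1.36 (adjusted p = 0.147, edgeR), and -0.13 (adjusted p = 0.957, edgeR) without WT replicate 5.

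All 6 leukocyte chains had a positive change on BAPN in KI, from 1.01 to 2.28 on the log2 scale, with no adjusted p under 0.447 (edgeR). In KI-BAPN, replicate 3 was far above the rest for Itgae (2.64 CPM, others at most 0.565) and Itgal (4.91 CPM, others at most 1.13). The same held for Itgax (9.60 CPM, others at most 2.15) and Itgb7 (9.18 CPM, others at most 2.33), so 1 library weighed on these group means. On BAPN in WT, 1 of 6 was positive. Without WT replicate 5 all 6 were positive in WT too, from 0.93 for Itgb7 to 2.10 for Itgam, and the smallest adjusted p among them was 0.101 (edgeR). The 5 highest Itgam libraries were WT-BAPN replicate 5, KI-BAPN replicate 6, WT-BAPN replicate 2, KI-BAPN replicate 3 and WT replicate 5. The 5 libraries with the highest sum of 17 macrophage markers were these same 5, at 1162 to 3013 CPM, and they also held the 5 highest values of Itgax and of Itgb2. Itgam, Itgax and Itgb2 thus varied between mice along with the macrophage markers, and the part of macrophage number in this was not tested. With the smooth muscle score as a covariate, an alternative added after the data were seen, 3 of the 6 were called lower on BAPN in WT, against 14.7% of all genes called in either direction. These were Itgae (-1.48, adjusted p = 0.0363, edgeR), Itgal (-2.73, adjusted p = 0.0180, edgeR) and Itgb7 (-2.45, adjusted p = 0.0107, edgeR), and WT replicate 5 was part of that fit. Itga2b, the platelet chain that the name pattern leaves out, had adjusted p-values of 0.550 or more in all 5 comparisons (edgeR).

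**Figure D5:**
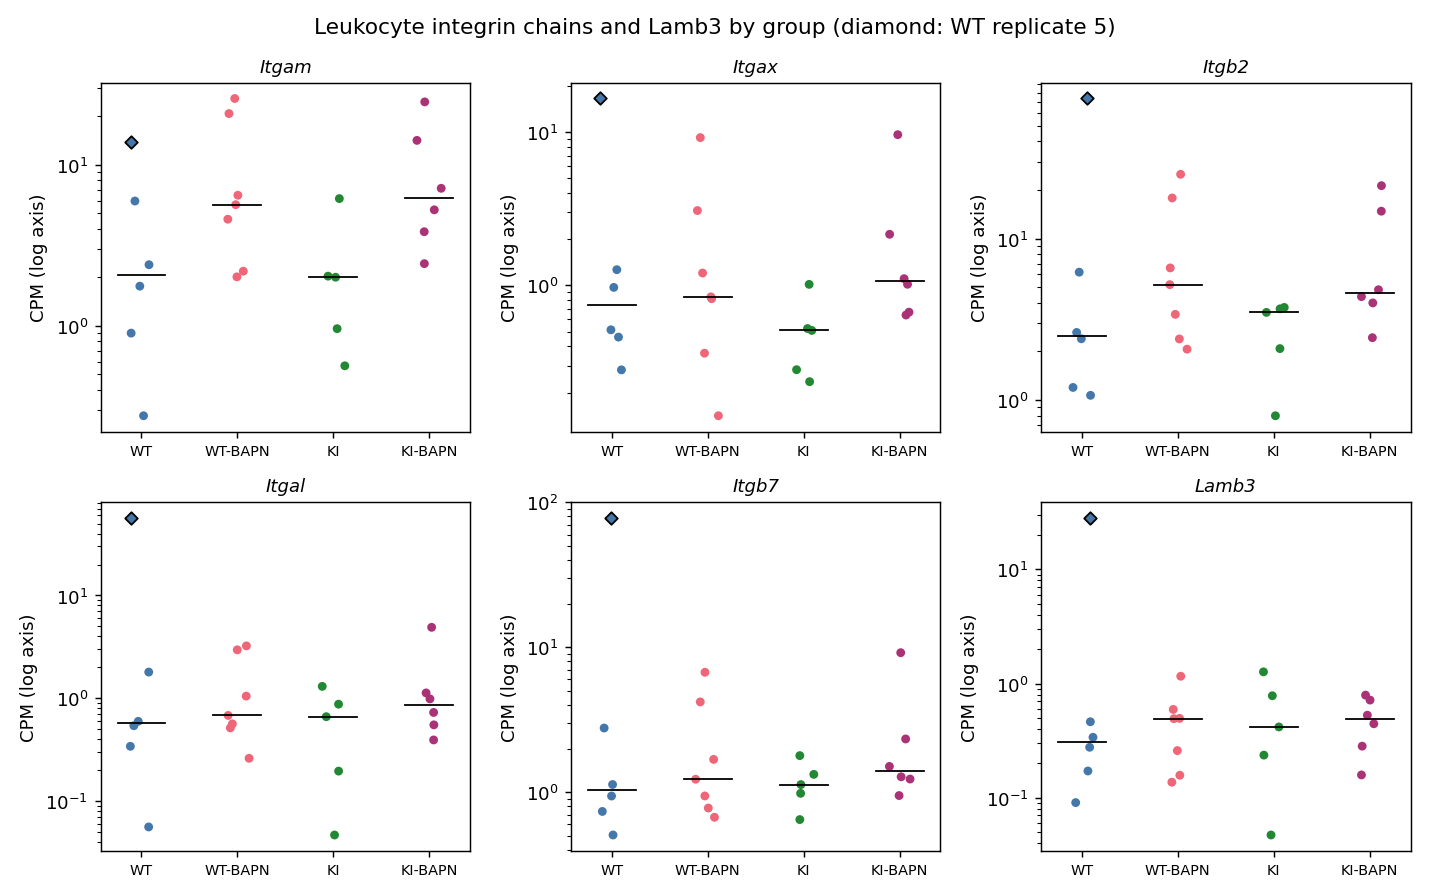
CPM on a log axis in each library by group for Itgam, Itgax, Itgb2, Itgal, Itgb7 and Lamb3, with a line at each group's median and WT replicate 5 drawn as a diamond. The diamond is the top WT point in all 6 panels, at 78.4 CPM for Itgb7 and 28.4 CPM for Lamb3.

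Ratios were taken between chains that can take the same place in a laminin trimer or that pair with the same beta chain. They were compared by exact two-sided permutation tests on log2 ratios of CPM with a prior count of 2. There were 3 ratios in 4 comparisons, adjusted over the 12 tests. The ratio of Lama5 to Lama4 averaged 1.10 ± 0.39 (SD, n = 7) in WT-BAPN and 0.37 ± 0.24 (SD, n = 6) in WT, a difference of 0.73 (exact permutation p = 0.00524, adjusted p = 0.0315). The ranges, 0.37 to 1.55 and 0.06 to 0.65, overlapped. The ratio of Itga5 to Itga8 averaged -1.89 ± 0.25 (SD, n = 7) in WT-BAPN and -0.71 ± 1.25 (SD, n = 6) in WT, a difference of -1.18 (exact permutation p = 0.00350, adjusted p = 0.0315). In WT it was 1.59 in replicate 5, and without that library the difference was -0.72 (adjusted p = 0.0455, exact permutation test). Both differences kept their direction when any 1 library was left out, from 0.66 to 0.85 for Lama5 to Lama4 and from -1.40 to -0.72 for Itga5 to Itga8. The adjusted p rose above 0.05, to at most 0.0779, in 10 of 13 such tests for Lama5 to Lama4 and in 9 of 13 for Itga5 to Itga8 (exact permutation tests). Neither ratio differed past the threshold on BAPN in KI, where the differences were -0.18 and -0.01 (adjusted p = 0.870 and 0.974, exact permutation tests), and the difference between genotypes in this response was not tested. The ratio of Lamb1 to Lamb2 averaged -4.88 in WT-BAPN and -4.94 in WT, and none of its 4 differences passed (smallest adjusted p = 0.534, exact permutation tests).

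Among partners of these receptors, the adhesion machinery list of 25 genes, which links integrins to actin, had 24 tested and 0 called in any comparison by edgeR, with 1, 0, 2, 1 and 0 at an unadjusted p under 0.05. Its smallest adjusted p on BAPN in WT was that of Lims1, the adaptor PINCH-1, at 0.0722 (log2 change -0.47 ± 0.16, edgeR). DESeq2 called 1 of these genes lower on BAPN in WT and limma voom 3, whereas the fit with the smooth muscle covariate called 4 higher and 1 lower. Over all genes these fits called 10.5, 29.8 and 14.7% in either direction. The list of 23 integrin ligands had 19 tested, of which 1 was called higher and 2 lower on BAPN in WT, against 3.44% of all genes called higher and 2.7% lower, and 0 were called elsewhere by edgeR. The counts depended on the fit, with 3 higher and 0 lower in limma voom (29.8% of all genes), and 5 higher and 3 lower with the smooth muscle covariate (14.7%).

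Spp1, osteopontin, rose by 6.03 ± 1.58 on the log2 scale on BAPN in WT (adjusted p = 0.0299, edgeR), from 1.27 to 8.58 CPM in WT (median 3.01) to a range of 1.23 to 1075 CPM in WT-BAPN (median 3.11). The medians were close, and the highest WT-BAPN value belonged to replicate 5, which was also among the 5 libraries richest in macrophage markers. Without WT-BAPN replicate 5 the rise was 4.75 (adjusted p = 0.0694, edgeR). The call of Spp1 was lost when any of 6 of the 13 libraries was left out, and limma voom gave 2.22 (adjusted p = 0.363). Vtn, vitronectin, fell by 4.07 on the log2 scale (adjusted p = 0.0303, edgeR) and Cdh1, the E-cadherin bound by alphaE beta7, fell by 5.33 (adjusted p = 0.0331, edgeR). Their highest WT values were 69.5 and 110 CPM, against WT medians of 2.27 and 0.433. Without WT replicate 5 the changes were -1.43 (adjusted p = 0.247, edgeR) and 0.17 (adjusted p = 0.922, edgeR). Fn1, fibronectin, ran from 162 to 2342 CPM in WT and 1973 to 4199 in WT-BAPN, with a change of 1.06 ± 0.39 (adjusted p = 0.100, edgeR).

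The list of 22 other basement membrane genes had all 22 tested. By edgeR 1 was called higher and 1 lower on BAPN in WT, against 3.44% of all genes called higher and 2.7% lower. In the other 4 comparisons 0 were called. On BAPN in WT the count was 14 higher and 0 lower with the smooth muscle covariate (14.7% of all genes called in either direction). It was 8 and 0 with the macrophage covariate (8.92%), 5 and 1 with the mesothelium covariate (7.53%), and 6 and 3 in limma voom (29.8%). Pxdn, peroxidasin, which cross-links collagen IV, rose from 56.1 to 106 CPM in WT (median 88.7) to 128 to 273 CPM in WT-BAPN (median 192), with no overlap. The log2 change was 1.21 ± 0.20 (adjusted p = 0.0102, edgeR), and neither leaving out any 1 of the 13 libraries nor any of the 14 other alternatives ended the call. In KI the Pxdn ranges were 72.2 to 167 CPM on plain water and 116 to 156 on BAPN, and the interaction was -1.07 ± 0.30 (adjusted p = 0.280, edgeR). Ntn4, netrin-4, which binds laminin gamma chains, fell by 0.95 on the log2 scale (adjusted p = 0.0465, edgeR), with 28.9 to 149 CPM in WT and 31.8 to 59.3 in WT-BAPN. Its call was lost when any of 10 of the 13 libraries was left out, with an adjusted p of at most 0.132 (edgeR). Agrn, agrin, and Col4a5, a collagen IV chain, had changes of 0.79 ± 0.25 (adjusted p = 0.0562, edgeR) and 1.13 ± 0.39 (adjusted p = 0.0816, edgeR).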

How the data were processed

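Polyadenylated RNA of 24 mouse aortas was counted per gene. The authors deposited 1 table of raw read counts for 21959 genes, not normalized, with gene lengths in a column of their own. Per the submitters' processing notes, Trim Galore, FastQC, HISAT2 and DESeq2 were used, with the builds GRCm38 and mm10. Which program counted the reads, on which strand, and every version are not given in the sources, so reads of overlapping genes on opposite strands cannot be told apart. Only 514 genes had the start and end of GENCODE M21, and 0 members, so the build of the deposited coordinates is open and chromosomes alone are printed from them. All 24 count columns were matched to samples and 0 were left unmatched.

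The members, the gene lists and the ratios were chosen with earlier results of these data known. Members were found by name; 1 gene of the 37 that match is not reported here and enters no count of members, though it stayed in the fit. Group means over the 24 libraries were fitted to the deposited counts in edgeR 4.0.16 under R 4.3.3 (TMM factors, filterByExpr by group, robust quasi-likelihood F tests) on 14216 genes, with Benjamini-Hochberg adjustment over all of them. Called means an adjusted p under 0.05 with no minimum fold. Standard errors were taken from the change and its F value. Values per length divide CPM by the deposited gene length. Named members are those called, or the 2 with the smallest adjusted p in a comparison with none called, plus the highest alpha, beta and laminin chain per length. Of each other list, up to 4 genes per comparison could be named. Chain ratios were compared by exact two-sided permutation tests.

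Tried in its place were DESeq2 1.42.0 and its size factors alone, voom in limma 3.58.1 with a weight per library, a looser and a stricter filter, fits restricted to each pair of groups, fits blocked on replicate number, estimation that is not robust, 3 sets of marker scores as covariates, 4 libraries left out together and each library left out singly. A smooth muscle covariate and a fit without WT replicate 5 and KI-BAPN replicate 3 together were added after the data were seen. The fits and tests were checked on simulated data. No pair of libraries of 1 group differed by less than 30.8 chi-square per degree of freedom, so none were taken as duplicates. PCR reads without molecular identifiers are not independent molecules.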

Additional observations from a re-analysis of the deposited data

Results flagged for a closer look

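Libraries far from the rest of their group were looked for in the 33 members of each group, 132 sets in all, by the gap of the highest or lowest library over the range of the group. The nominal rate of this test is about 1 set in 20, but 11.1 to 23.7% of all tested genes passed it in the 4 groups. Of the members' sets 30 passed it, and those shares of all genes are what this is to be set against. In WT 14 of 33 members had such a library, against 23.7% of all tested genes; in WT-BAPN 3, against 13.2%; in KI 5, against 12.2%; and in KI-BAPN 8, against 11.1%.

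All 14 cases in WT came from replicate 5, the library with airway, lymphocyte and skeletal muscle markers. It was far above the other 5 with 8.58 CPM for Itga2 (others at most 1.97), 25.1 CPM for Itga4 (others at most 7.64), 81.3 CPM for Itga6 (others at most 28.6), 5.95 CPM for Itgae (others at most 0.342), 57 CPM for Itgal (others at most 1.8), 16.5 CPM for Itgax (others at most 1.27), 73.7 CPM for Itgb2 (others at most 6.19), 76.7 CPM for Itgb4 (others at most 24.3), 78.4 CPM for Itgb7 (others at most 2.77), 88.1 CPM for Lamb1 (others at most 30) and 28.4 CPM for Lamb3 (others at most 0.462). It was far below them with 113 CPM for Itga1 (others at least 180), 123 CPM for Itga8 (others at least 2377) and 25.9 CPM for Itgb3 (others at least 140). Most of the chains it held at high levels are known from epithelium or leukocytes, and Itga8, Itga1 and Itgb3 from muscle and vessel cells. The part of other tissue in these values was not tested.

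In KI-BAPN, 7 cases came from replicate 3, the library with the most macrophage and adipocyte markers and the fewest smooth muscle markers. It had 20.7 CPM for Itga11 (others at most 8.86), 60.5 CPM for Itga6 (others at most 32.5), 2.64 CPM for Itgae (others at most 0.565), 4.91 CPM for Itgal (others at most 1.13), 9.6 CPM for Itgax (others at most 2.15), 9.18 CPM for Itgb7 (others at most 2.33) and 92.2 CPM for Lamb1 (others at most 41). The part of other tissue in these values was not tested. Replicate 6 of that group stood apart with 73.3 CPM for Lama2 (others at most 37.6).

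In KI, replicate 2 stood apart with 10.5 CPM for Itga2 (others at most 1.96), 6.17 CPM for Itgam (others at most 2.04) and 22.2 CPM for Itgb8 (others at most 10.1), replicate 4 with 5.18 CPM for Itga11 (others at most 2.42) and replicate 5 with 93.9 CPM for Lamb1 (others at most 28.1). In WT-BAPN, replicate 1 stood apart with 88.3 CPM for Lamc3 (others at most 40.6) and replicate 5 with 11.7 CPM for Itga2 (others at most 4.66) and 9.19 CPM for Itgax (others at most 3.08).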

How the results depend on the processing

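The count of members called on BAPN in WT, 0 of 33, was 0 with DESeq2 and with its size factors, and 7 with limma voom. It was 3 with fat and muscle covariates and 1 with the macrophage covariate. In the fit that dropped 4 libraries taken as rich in other tissue (WT replicate 5 and KI replicates 1, 2 and 5) it was 3. As shares of the members these were 0, 0, 21.2, 9.09, 3.03 and 9.09%. The same fits called 10.5, 6.24, 29.8, 8.12, 8.92 and 10.5% of all tested genes. With the alternatives added after the data were seen it was 10 with the smooth muscle covariate, under which 14.7% of all genes were called. Without WT replicate 5 and KI-BAPN replicate 3 together it was 4, against 9.86% of all genes. It was 0 to 3 with any 1 library left out (3 without WT replicate 5, against 7.85% of all genes). In KI against WT on plain water the count was 1 with the smooth muscle covariate (Itga5), against 0.964% of all genes. It was 0 in the other alternatives and leave-outs. In the other 3 comparisons it was 0 in every alternative and leave-out. The fit without the 4 libraries kept only replicates 3 and 4 in the KI group. Over all alternatives and leave-outs, 16 different members were called at least once on BAPN in WT, so which chains are called there depends on the method, and the cause was not tested. Members called in 3 or more settings were followed singly, a limit chosen after the values were seen.

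The change of Lamb3 on BAPN in WT turned to 0.67 in limma voom, 1.07 with fat and muscle covariates, 0.79 without the 4 libraries, 0.79 without the 2 libraries, and ranged from -3.77 to 0.79 with 1 left out. That of Itgb7 on plain water turned to 0.11 with fat and muscle covariates, and its interaction to -0.0012 in limma voom, -0.52 with those covariates and -0.62 without the 2 libraries. With the smooth muscle covariate the changes on BAPN in WT turned to -0.080 for Itga4, 0.17 for Itga5 and 0.077 for Lama4. That fit called 6 members higher and 4 lower there, against 14.7% of all genes. Higher were Itga10, Itga3 (0.99, adjusted p = 0.00316, edgeR) and Itgb3 (1.18, adjusted p = 0.00730, edgeR). So were Lamb2 (0.89, adjusted p = 0.00854, edgeR), Itga9 (0.92, adjusted p = 0.0178, edgeR) and Lama5 (0.99, adjusted p = 0.0247, edgeR). Lower were Itgae, Itgal, Itgb7 and Lamb3. The cause was not tested.

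Leaving out the 4 libraries kept only replicates 3 and 4 in the KI group. The Lama5 to Lama4 difference then turned to 0.17 on BAPN in KI and -0.0095 between genotypes on plain water. With 1 library left out, the differences on BAPN in WT ranged from 0.66 to 0.85 and, for Itga5 to Itga8, from -1.40 to -0.72. Lama5 to Lama4 ranged from -0.37 to 0.12 on BAPN in KI, and Itga5 to Itga8 from -0.28 to 0.19. Lamb1 to Lamb2 ranged from -0.35 to 0.85 on BAPN in WT, from -1.26 to 0.16 between genotypes on plain water and from -0.10 to 0.80 on BAPN.

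The labels do not say whether the replicate numbers pair the animals, and the reported fit did not pair them. Correlations of same-numbered libraries' deviations ran from -0.52 to 0.57, and the replicate block left the count of members called at 0 in every comparison. Under it 7.2% of all genes were called on BAPN in WT, and the calls of Spp1, Vtn and Cdh1 ended (adjusted p = 0.262, 0.135 and 0.182, edgeR). With 5 to 7 libraries a group and coefficients of variation with medians of 32.6 to 52.2% over the members (31.8% in WT without replicate 5), small changes were not detectable here.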
